A study of Mus musculus with 2 samples.

Results

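The 9 genes described here encode subunits of voltage-gated sodium and calcium channels: *Scn3a*, *Scn8a*, *Scn3b*, *Cacna1a*, *Cacna1h*, *Cacna1d*, *Cacna2d1*, *Cacnb2* and *Cacnb3*. They were taken by symbol from the deposited expression tables and are 9 of 23532 genes that have an estimate in both libraries, and 9 of the 40 sodium and calcium channel subunit genes. They were listed with earlier values of this comparison known, and all 9 lay at or above 1 FPKM (sequenced fragments divided by transcript length in kilobases and by library size) in the GFP+ library. Their values are therefore a description, with no test. Just inside that level was *Cacna1d* at 1.01 FPKM, and just outside it were *Cacnb4* at 0.715 and *Cacna1b* at 0.649 FPKM.

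The libraries came from small-intestinal organoids of ChgA-GFP mice, in which a fluorescent protein reports the chromogranin A gene, a marker of enteroendocrine cells. Organoids are epithelial cultures grown from isolated crypts, here kept in Matrigel with epidermal growth factor, noggin and R-spondin. Dissociated cells were sorted, about 1% were GFP+, and RNA of this fraction (group GFP+) and of the remaining cells (group GFP-) was amplified as polyadenylated RNA with a low-input kit. Both groups carry the same reporter and had the same culture; age, sex and the number of animals were not stated in the sources used. There was 1 library per group, so the differences carry neither a p-value nor a check against replicates, and in bulk RNA more cells of a type and more RNA per cell cannot be told apart.

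A voltage-gated sodium channel has 1 large pore protein, which opens within milliseconds of depolarisation and carries the rising phase of an action potential, and smaller beta subunits that adjust its gating and surface level. A calcium channel likewise has 1 pore protein. High-voltage-activated pores (L, N, P/Q and R types) assemble with an intracellular beta subunit and an extracellular alpha2delta subunit and trigger secretion, whereas low-voltage-activated pores (T type) open near the resting potential and do not need these partners. In endocrine cells such channels link electrical activity to hormone release. The study that made these libraries also recorded from enterochromaffin cells, the serotonin-producing cells of the gut epithelium. As background from the published study, the cells carried voltage-gated sodium and calcium currents, and tetrodotoxin and omega-agatoxin IVA, a blocker of P/Q-type channels, were among the agents used there. Those recordings were not analysed here, and a transcript level does not give a current.

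The labelled fractions were checked with marker genes. All 6 enterochromaffin markers with an estimate were higher in GFP+, from a sum of 114 FPKM in GFP- to 5458 FPKM, and *Tph1*, the first enzyme of serotonin synthesis, was at 1359 against 17.5 FPKM. *Chga* and *Chgb* had no estimate in GFP+. Each of 7 hormone genes of other enteroendocrine cells was lower in GFP+, 4 of them at least 4-fold, and *Gip* was still at 141 FPKM. The summed markers of other epithelial cells were lower in GFP+ but well above 0, at 1190 against 2999 FPKM for goblet cells (*Tff3* at 1008), 1248 against 3173 for enterocytes and 303 against 5172 for Paneth cells. Those of stem cells were at 246 against 1004 FPKM and of tuft cells at 4.61 against 10.7 FPKM. The enterocyte gene *Sis* was higher, at 183 against 85.5 FPKM. So were the goblet gene *Muc2*, at 3.98 against 2.91 FPKM, and the tuft gene *Dclk1*, at 2.58 against 1.31 FPKM. The other 4 enterocyte, 4 goblet and 3 tuft markers were lower. Among 9 neuronal markers *Elavl3*, *Elavl4* and *Prph* stayed at or below 0.152 FPKM. Of the same list 8 were nevertheless higher in GFP+, led by *Snap25* at 137 against 1.53 and *Nefm* at 16.1 against 0.905 FPKM, with a list sum of 164 against 4.41 FPKM. The list sums of the other non-epithelial cells in GFP+ and GFP- were 1.71 and 0.275 FPKM for 4 glial markers and 12.3 and 8.78 FPKM for 5 of smooth muscle and interstitial cells, of which *Kit* alone held 11.3 FPKM in GFP+. They were 3.17 and 0.0166 FPKM for 2 fibroblast markers, and 10.4 and 0.187 FPKM for 2 endothelial markers, nearly all of it *Pecam1*. For 2 immune markers they were 2.74 and 0.617 FPKM, nearly all of it *Cd68*, with *Ptprc* at 0.0224 FPKM in both libraries. The part of these cells in the subunit values was not tested.

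Among the sodium channel pores, 1 gene made up nearly the whole class in GFP+. *Scn3a* encodes Nav1.3, a neuronal pore best known from developing neurons and endocrine cells. It was at 66.8 FPKM in the GFP+ library against 0.357 FPKM in GFP-, with deposited upper bounds of 152 and 1.02 FPKM. The ratio was 187, and the log2 difference, taken throughout as log2 of (FPKM + 1) in GFP+ over (FPKM + 1) in GFP-, was 5.64. In the GFP+ library *Scn3a* ranked 1341st of the 23532 genes by FPKM. *Scn8a* (chr15:100870645-101045938, plus strand) encodes Nav1.6, the pore of the axon initial segment and nodes of Ranvier. It was at 1.13 FPKM in the GFP+ library against 0.0315 FPKM in GFP-. The ratio was 35.8 and the log2 difference 1.04. *Scn3a* thus held 98.1% of the summed FPKM of the 10 sodium pore genes in GFP+ and *Scn8a* held 1.65%, a level of *Scn3a* 59.3 times that of *Scn8a*. In GFP- the same 2 genes led at 89.3% and 7.88%, out of a sum of only 0.399 FPKM against 68.1 FPKM in GFP+.

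**Figure D1:**
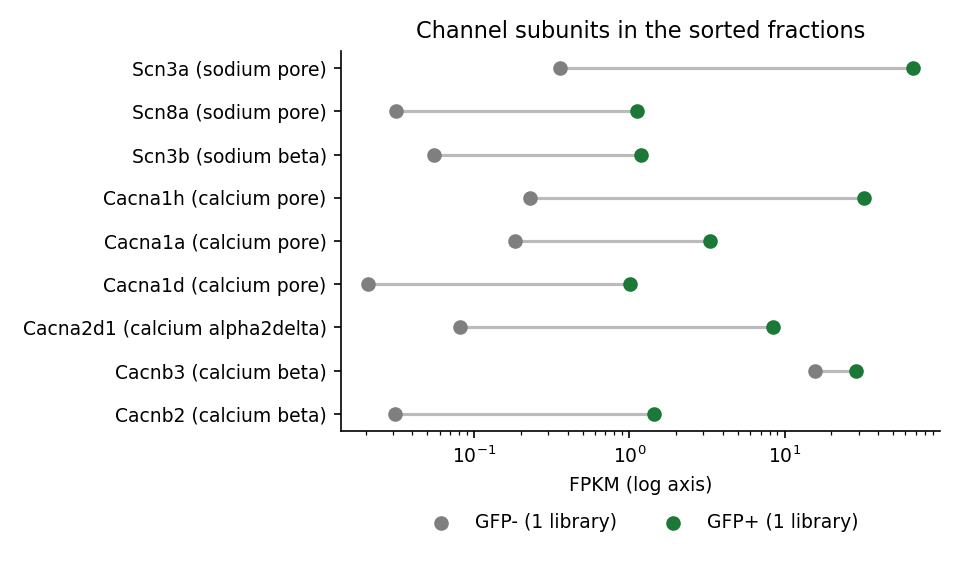
Level of the 9 subunit genes in each library (FPKM, log axis); grey points are the GFP- library, green points the GFP+ library, and a line joins the 2 values of a gene. Every green point lies to the right of its grey point, by the widest margin for *Scn3a* (0.357 to 66.8 FPKM) and the narrowest for *Cacnb3* (15.8 to 28.7 FPKM).

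*Scn3a* stands in a row of related genes. It lies on mouse chromosome 2 on the minus strand (mm10, chr2:65457118-65567492, a protein-coding gene), and 5 of the 10 sodium pore genes share a stretch of 1.33 Mb there. The other 4 were at 0.00493 to 0.140 FPKM in GFP+. The nearest neighbour *Scn2a1*, encoding the pore Nav1.2, was the highest of them, at 0.140 FPKM in the GFP+ library against 0.00373 FPKM in GFP-. The remaining 3 of the row, *Scn1a*, *Scn9a* and *Scn7a*, were at 0.00587, 0.00493 and 0.0111 FPKM in GFP+. The high level was thus seen at 1 gene of the row. How reads shared by near-identical stretches of these genes were assigned is not stated in the sources used.

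Grouped by textbook pharmacology, the 6 tetrodotoxin-sensitive pores summed to 68.1 FPKM in GFP+, or 99.97% of the class, against 0.394 FPKM in GFP-. The 3 resistant pores summed to 0.0105 FPKM in the GFP+ library against 0.00282 FPKM in GFP-. Of these *Scn10a* and *Scn11a*, of pain-sensing neurons, were at 0.00766 and 0.00282 FPKM in GFP+. Sodium pore transcripts in the GFP+ library were therefore almost wholly of the sensitive kind.

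The sodium beta subunits were low beside the pores. *Scn3b* (Nav beta3; chr9:40269216-40291618, plus strand) was at 1.19 FPKM in the GFP+ library against 0.0554 FPKM in GFP-. The ratio was 21.5, with about 14 fragments in GFP- by the scale inferred from the files, and the log2 difference 1.05. It held 92.8% of the beta class in GFP+ and 13.5% in GFP-. In GFP- *Scn2b* led the class, at 0.322 FPKM against 0.0804 FPKM in GFP+, but its listed locus is merged with that of *Amica1*, a junctional adhesion gene with 128 FPKM in GFP- and 24.6 FPKM in the GFP+ library. *Scn4b* was at 0.0118 FPKM in the GFP+ library against 0.0316 FPKM in GFP-. The pore sum was 53.1 times the beta sum in GFP+ and 0.977 times it in GFP-. *Scn2b* held 78.7% of the beta sum in GFP-. Its upper bounds, 5.71 FPKM in GFP- and 1.25 FPKM in GFP+, lay far above its estimates. The GFP- ratio and the GFP- shares of the beta class are therefore rough.

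**Figure D2:**
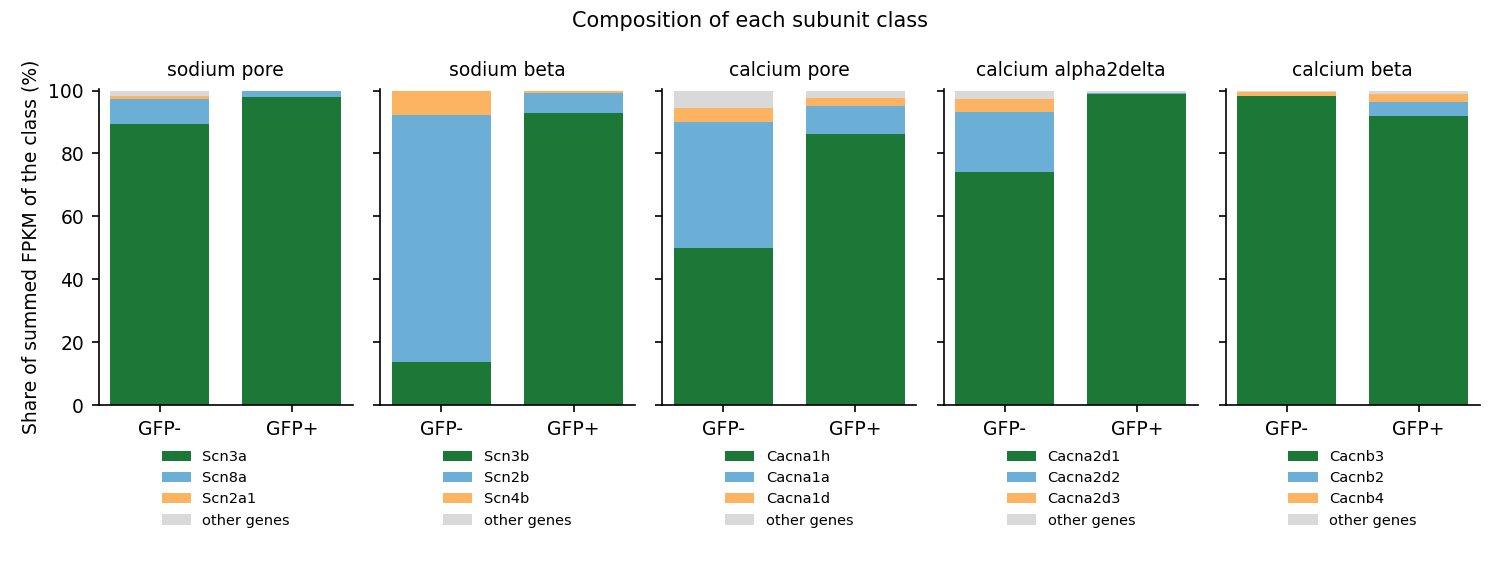
Share of each gene in the summed FPKM of its subunit class (percent), 1 bar per library; colours mark the 3 genes of the highest share and grey the rest of the class. In GFP+ a single gene holds 86.3% or more of every class shown: *Scn3a*, *Scn3b*, *Cacna1h*, *Cacna2d1* and *Cacnb3*.

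Calcium pores were led by a T-type gene. *Cacna1h* encodes Cav3.2, a low-voltage-activated pore known from sensory neurons and adrenal cells (chr17:25370553-25433783, minus strand). It was at 32.7 FPKM in the GFP+ library against 0.229 FPKM in GFP-, with upper bounds of 77.7 and 1.10 FPKM, a ratio of 143 and, on the log2 scale, a difference of 4.78. The listed locus also takes in *Tpsg1*, a tryptase gene annotated on the opposite strand, which was lower in GFP+, at 1.56 against 14.4 FPKM. The other T-type pores, *Cacna1g* and *Cacna1i*, were at 0.00804 FPKM and listed at 0 in GFP+. *Cacna1h* alone was 86.3% of the summed FPKM of the 10 calcium pore genes in GFP+ and 50.1% in GFP-.

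*Cacna1a*, the P/Q-type pore Cav2.1 that drives transmitter release at many central synapses, came second. It was at 3.33 FPKM in the GFP+ library against 0.182 FPKM in GFP-, with upper bounds of 7.84 and 0.509 FPKM. The ratio was 18.2 and the log2 difference 1.87, just short of the 4-fold size rule (a log2 difference of at least 2). Its listed locus, chr8:84415364-84640249 on the plus strand, starts inside the annotated gene, which begins at 84388440. In GFP+ *Cacna1h* was at 9.83 times the level of *Cacna1a*, and in GFP- at 1.26 times. As listed, the difference between these pores was thus wider in the reporter fraction than in the other cells. The GFP- ratio rests on low values, 0.229 and 0.182 FPKM, with upper bounds of 1.10 and 0.509 FPKM. The part of *Tpsg1*, at 14.4 FPKM in GFP-, in the value of *Cacna1h* was not tested.

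*Cacna1d* encodes Cav1.3, an L-type pore that opens at less depolarised potentials than its relatives and paces endocrine and cardiac cells. It was at 1.01 FPKM in the GFP+ library against 0.0208 FPKM in GFP-. The ratio was 48.3 and the log2 difference 0.97. The deposited upper bound in GFP- was 0.648 FPKM, far above the estimate, which rests on about 11 fragments by the scale inferred from the files. In GFP+ *Cacna1d* had an upper bound of 5.07 FPKM, also well above its estimate. Its listed locus, chr14:30009000-30527056, is merged with those of *Chdh* and *Dcp1a*, both annotated on the opposite strand and at 7.92 and 10.8 FPKM in GFP+. Without strand information, which no source used here gives, reads of overlapping genes cannot be told apart.

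The remaining pores were lower. *Cacna1b*, the N-type pore Cav2.2, was at 0.649 FPKM in the GFP+ library against 0.0117 FPKM in GFP-, a ratio of 55.4 that rests on about 7 fragments in GFP- by the scale inferred from the files. *Cacna1c*, the L-type pore of heart and smooth muscle, was at 0.105 against 0.00760 FPKM. The other 3 high-voltage-activated genes, *Cacna1e*, *Cacna1f* and *Cacna1s*, did not reach 0.1 FPKM in either library. By type of current the T-type genes held 86.3% of pore FPKM in GFP+, the P/Q type 8.77%, the L type 3.16%, the N type 1.71% and the R type 0.0666%. Among high-voltage-activated pores alone, which summed to 5.20 FPKM in the GFP+ library against 0.225 FPKM in GFP-, *Cacna1a* held 64.0% and 81.1%.

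The auxiliary subunits differed from each other in where they were found. *Cacna2d1* (chr5:15934691-16374511, plus strand), the alpha2delta1 subunit that raises surface calcium channels and binds gabapentin, was at 8.42 FPKM in the GFP+ library against 0.0815 FPKM in GFP-. Its upper bounds were 19.9 and 0.231 FPKM, its ratio 103 and its log2 difference 3.12. It held 98.9% of its class in GFP+, and *Cacna2d2*, *Cacna2d3* and *Cacna2d4* stayed below 0.1 FPKM in both libraries. *Cacnb3* (chr15:98632328-98644536, plus strand), a beta subunit of neurons and insulin-secreting cells, was at 28.7 FPKM in GFP+ and already at 15.8 FPKM in GFP-. Its ratio was 1.82 and its log2 difference 0.83, and its upper bounds were 62.0 and 36.9 FPKM. *Cacnb2* (chr2:14604306-14987908, plus strand), the main cardiac beta subunit, was at 1.44 against 0.0310 FPKM, 46.3 times higher (log2 difference 1.24). That GFP- value rests on about 7 fragments by the scale inferred from the files, and the listed locus is shared with *Gm13315*, a pseudogene. *Cacnb4* was at 0.715 against 0.205 FPKM and *Cacnb1*, the skeletal muscle form, at 0.382 against 0.0507 FPKM. *Cacnb3* held 91.9% of the beta class in GFP+ and 98.2% in GFP-, at 20.0 times the level of *Cacnb2* in GFP+. Of 8 gamma subunit genes *Cacng4* alone passed 0.1 FPKM, at 0.482 FPKM in GFP+ and listed at 0 in GFP-.

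The promoters of *Cacna2d1* and *Cacnb3* are shown because these are the leading alpha2delta and beta genes in GFP+, one listed near 0 in the other cells and one well above it in both fractions. RefSeq start sites (GRCm38.p6, the assembly of mm10) were matched for 5 of the 9 genes. The windows run from 250 bases before to 50 bases after a start, both on the plus strand, at chr5:15934441-15934740 and, for the first of 2 starts of *Cacnb3*, chr15:98632078-98632377. Capitals mark matches to the GC box GGGCGG on either strand, each counted where matches overlap.
Cacna2d1: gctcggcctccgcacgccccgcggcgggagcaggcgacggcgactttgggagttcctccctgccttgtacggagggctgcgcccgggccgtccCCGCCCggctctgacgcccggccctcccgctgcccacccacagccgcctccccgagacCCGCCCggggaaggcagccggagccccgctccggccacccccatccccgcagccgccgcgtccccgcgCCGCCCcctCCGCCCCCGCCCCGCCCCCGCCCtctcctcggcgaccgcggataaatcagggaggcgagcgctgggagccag
Cacnb3: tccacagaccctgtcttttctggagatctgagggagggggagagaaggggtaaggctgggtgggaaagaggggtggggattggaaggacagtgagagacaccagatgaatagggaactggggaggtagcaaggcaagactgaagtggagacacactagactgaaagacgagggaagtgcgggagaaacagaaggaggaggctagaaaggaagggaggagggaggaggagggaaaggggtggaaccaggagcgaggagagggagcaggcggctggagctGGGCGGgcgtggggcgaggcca
The *Cacna2d1* window had 7 such matches, 42 CpG dinucleotides and 80.0% G and C. The *Cacnb3* window had 1 match, 7 CpG dinucleotides and 59.7% G and C. Of 32851 promoter windows of this length in the same table, 35.7% hold a GC box, the median G and C content is 52.7%, and 1.05% are as rich as that of *Cacna2d1* or richer. The second *Cacnb3* start had 4 matches and 72.0% G and C. These matches describe the letters and not the use of a site.

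FPKM is scaled per transcript length, so pore and auxiliary levels are set side by side within a library; even coverage of long and short transcripts after amplification was not tested. In GFP+ the beta sum was 31.2 FPKM, 6.01 times the sum of the high-voltage-activated pores, and the alpha2delta sum was 8.51 FPKM, 1.64 times it. In GFP- the beta sum was 16.0 FPKM, 71.3 times the pore sum, and the alpha2delta sum of 0.110 FPKM was 0.488 times it. In GFP- the beta subunit *Cacnb3* was thus listed with little pore or alpha2delta transcript, while in GFP+ the pores *Cacna1h* and *Cacna1a*, *Cacna2d1* and *Cacnb3* were all above 3 FPKM.

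Against all genes, 3 of the 9 (*Scn3a*, *Cacna1h* and *Cacna2d1*) passed the size rule as higher in GFP+, and none as lower. The rule was passed as higher by 7.09% of the 11868 genes that reached 1 FPKM in one library or the other, and as lower by 4.59%. The median log2 difference of the 9 was 1.24, and that of all genes compared was -0.12. All 9 differences were above 0, as were those of 46.2% of all genes compared. In GFP- 8 of them lay under 1 FPKM and entered the comparison through GFP+ alone, so the sign of their difference was given beforehand; the exception is *Cacnb3*. Of the 14 sodium subunit genes 3 reached 1 FPKM and 1 passed the rule. Of the 26 calcium subunit genes 6 reached it and 2 passed. The genes that reached it are the same 9. Over all genes of the sodium and the calcium list without the filter, the median differences were 0.01 and 0.06, beside 0 over all 23532 genes. With a pseudocount of 0.1 in place of 1, 8 of the 9 passed, all but *Cacnb3* (12.8% of all genes), and with 5, 2 passed (2.97%), *Cacna2d1* falling to 1.40. *Cacna1a* passed, at 2.27 and 2.37, when the median ratio of well-expressed genes was set to 0 (10.8% of all genes) or both libraries were brought to one total (11.8%).

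**Figure D3:**
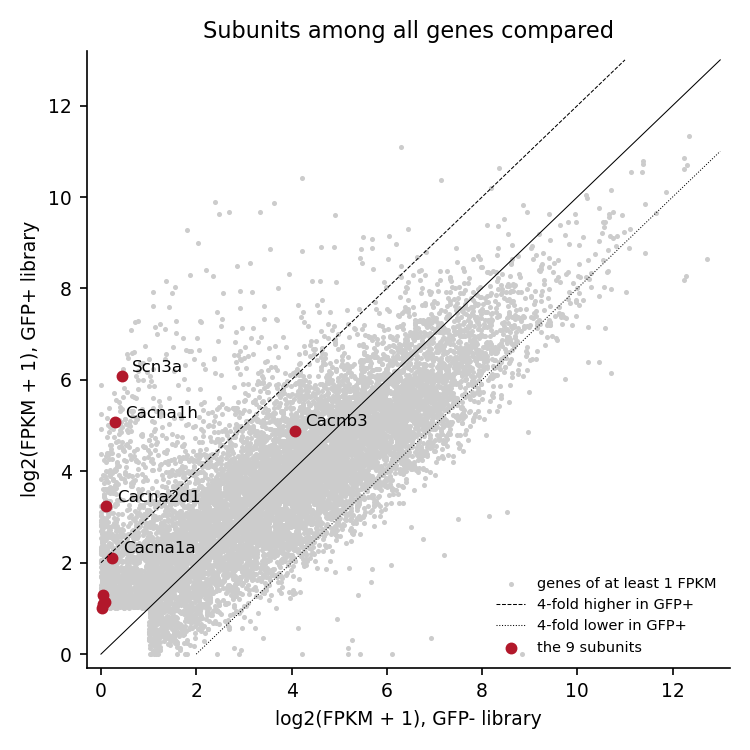
Level of each gene that reached 1 FPKM in one library or the other, as log2(FPKM + 1) in GFP- (horizontal) and GFP+ (vertical); red points are the 9 subunits, the solid line marks equal levels and the broken lines a 4-fold difference. *Scn3a*, *Cacna1h* and *Cacna2d1* lie above the upper line, *Cacna1a* just under it, and *Cacnb3* near the line of equal levels.

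The level in GFP- as a percentage of that in GFP+ ran from 0.534% (*Scn3a*) to 5.49% (*Cacna1a*) over the 8 genes other than *Cacnb3*, for which it was 54.9%. Over the 6 enterochromaffin markers it ran from 0.408% to 3.52%, with 1.29% for *Tph1*. *Cacna2d1* was at 0.968%, *Cacna1h* at 0.70%, *Cacna1d* at 2.07%, *Cacnb2* at 2.16%, *Scn8a* at 2.80% and *Scn3b* at 4.66%. Of the 9, 6 thus lay inside the range of the markers, and *Scn3b*, *Cacna1a* and *Cacnb3* above it. The 8 genes other than *Cacnb3* entered the comparison through GFP+ alone, so a lower level in GFP- was given beforehand. The GFP- values of *Scn8a*, *Cacna1d* and *Cacnb2* rest on about 21, 11 and 7 fragments, so their place in the range is rough. The share of all genes compared that lie in the range was not computed. That range is not particular to enterochromaffin markers: the neuronal marker *Snap25* was at 1.12%, *Rbfox3* at 2.72%, the endothelial marker *Pecam1* at 1.79%, the glial marker *Gfap* at 0.636% and the fibroblast marker *Col1a1* at 0.681%.

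Partner genes were described from a list of 24, most of them proteins that bind these channels or regulate them and 4 of them parts of the separate sodium leak channel complex. Of these 12 reached 1 FPKM, 5 passed the size rule as higher and none as lower, beside 7.09% and 4.59% of all genes compared. The median log2 difference was 1.63 over the 12, beside -0.12 over all genes compared. Without the filter it was 0.36 over all 24, beside 0 over all 23532 genes. Of the 12, 5 reached 1 FPKM in GFP+ alone, namely *Fgf14*, *Rimbp2*, *Rims2*, *Stac* and *Rrad*. The sign of their difference was given beforehand. Among the genes that passed the rule, *Gem* alone reached 1 FPKM in both libraries. *Fgf14*, an intracellular factor that binds sodium pores and tunes their inactivation, was at 29.4 FPKM in the GFP+ library against 0.199 FPKM in GFP-, a log2 difference of 4.66. Its relatives *Fgf11*, *Fgf12* and *Fgf13* were at 0.851 and 0.0173 FPKM and listed at 0 in GFP+. *Rimbp2* and *Rims2*, scaffolds that tether calcium channels to release sites, were at 20.3 against 0.177 FPKM and 8.76 against 0.234 FPKM. *Stac*, an adaptor of L-type channels, was at 6.88 against 0.203 FPKM. *Gem*, a small GTPase that lowers the surface level of calcium channels through the beta subunit, was at 7.87 against 1.02 FPKM. *Cachd1*, an alpha2delta-like protein, was at 19.9 against 4.36 FPKM and missed the rule at 1.96, and *Ank3*, the ankyrin that anchors sodium channels, was at 7.52 against 2.44 FPKM. *Nalcn*, the pore of the sodium leak channel, was at 0.280 FPKM in GFP+ and listed at 0 in GFP-. With a pseudocount of 5, 2 of the 12 passed, *Fgf14* and *Rimbp2*, beside 2.97% of all genes. With 0.1, 7 of the 12 passed, beside 12.8% of all genes. With the median ratio set to 0 or both libraries at one total, 6 of 13 passed, beside 10.8% and 11.8% of all genes.

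**Figure D4:**
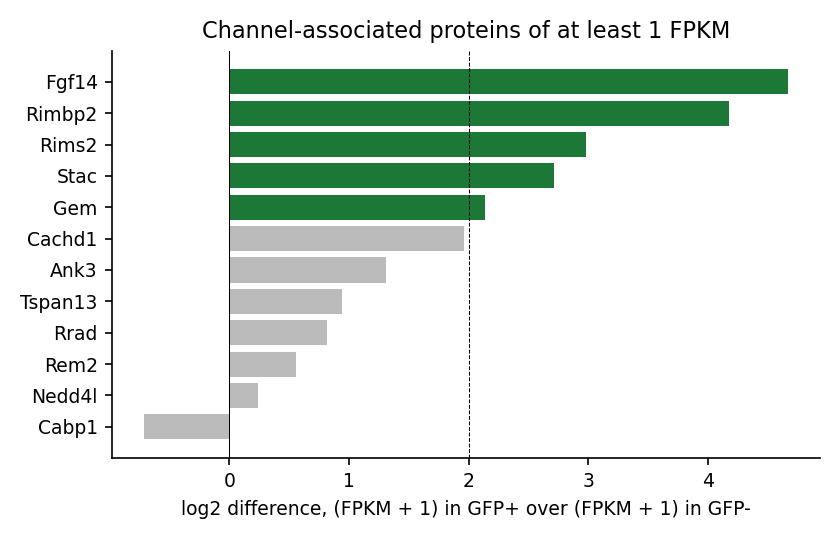
Log2 difference (GFP+ over GFP-, on FPKM + 1) of the 12 channel-associated genes of at least 1 FPKM; green bars reach the 4-fold rule, drawn as a broken line at 2. *Fgf14*, *Rimbp2*, *Rims2*, *Stac* and *Gem* pass it, and *Cabp1* alone is below 0, at -0.71.

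The genes most like *Scn3a* and *Cacna1h* were found by the straight-line distance between genes in log2(FPKM + 1) over the 2 libraries. Nearest to *Scn3a* were the joined row of the odorant receptors *Olfr560* and *Olfr78* (distance 0.16, 74.4 against 0.380 FPKM) and *Ankrd55* (0.27). Next came *C1qa* (0.31, 66.5 against 0.677 FPKM), *Acvrl1* (0.36) and *Baiap3* (0.36). Nearest to *Cacna1h* were *Pde11a* (0.02, 33.2 against 0.231 FPKM), *Ssbp2* (0.09), *Adora3* (0.11), *Gnao1* (0.12) and *Peg3* (0.15). With only 2 libraries such nearness describes 2 levels and no pattern over conditions.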

How the data were processed

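The authors deposited, per the file headers, Cuffdiff gene tables with FPKM values, confidence bounds and a status for 23793 rows in each of 2 libraries. FastQC, TopHat2 0.7, Cufflinks, Cuffdiff and mm10 appear in the submitters' processing notes; the annotation is not stated there. FPKM values were summed per symbol, and 5 rows of the GFP+ library whose status marks too many fragments to estimate were left out. Genes reaching 1 FPKM in one library or the other were set side by side on log2(FPKM + 1), a scale that understates changes of low genes, with a size rule of 4-fold and no test, in Python 3.11.15 with pandas 2.3.3. Listed starts were shifted to count from 1; strands are from GENCODE M21.

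The files state no depth. From steps in the low FPKM values of single-transcript genes above 3000 bases, 1 FPKM and kilobase stood for about 59.0 fragments in GFP- and 59.8 in GFP+, with 75.2% and 59.0% of low values within 0.1 of a whole number; the step was chosen on those values. These scales, and counts from them with the longest coding transcript, are rough. By them the GFP- values of *Scn8a*, *Scn3b*, *Cacna1d* and *Cacnb2* rest on about 21, 14, 11 and 7 fragments, and that of *Scn3a* on about 201. Amplified fragments are not independent molecules.

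The genes and lists were chosen with earlier results of these data known. Named were the 9 genes, other subunits reaching 0.1 FPKM, partners by the size rule, and the 5 nearest genes to *Scn3a* and to *Cacna1h*. Subunits under 0.1 FPKM, other partners, markers and genes of merged loci that are named were chosen after their values were seen. Pseudocounts of 0.1 and 5, no filter, a filter of 5 FPKM, both rescalings and rows of status OK alone were tried.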

Additional observations from a re-analysis of the deposited data

How the results depend on the processing

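All 9 genes had a log2 difference above 0 under each setting tried that gave them a value. With a filter of 5 FPKM in the higher library 4 of them had one. None of the settings could have reversed a sign. Pseudocounts and filters leave it as it is, and both rescalings raised the GFP+ values. For the 8 genes other than *Cacnb3* the sign was also given beforehand, so the shared sign is no check on the result. The counts of genes at least 4-fold higher moved most with the pseudocount. With 0.1 in place of 1, 8 of the 9 passed, as did 7 partner genes and 1524 of all genes. Those 8 are also the 3 sodium and 5 calcium subunit genes that passed. With a pseudocount of 5, 2 of the 9 passed, 1 of them a calcium subunit gene, as did 2 partner genes and 353 of all genes. With the median ratio of genes that reach 10 FPKM in each library (-0.50) set to 0, 1317 of all genes passed, and with both libraries at one total 1448, against 841 as deposited; 4 of the 9 passed under either. These rescalings moved the median difference of all genes compared from -0.12 to 0.35 and 0.46. The share of called genes that were higher then rose, with 184 and 133 genes lower against 545. Dropping the filter, or keeping rows of status OK alone, left 3 of the 9 passing. The partner list was put through these settings after the data were seen. No paired analysis was possible because each group has 1 library. Levels of a few fragments in GFP- limit the ratios of *Cacnb2*, *Cacna1b*, *Cacna1d*, *Scn3b* and *Scn8a*.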
